A study of Mus musculus with 2 samples.

Results

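The clustered replication histone genes of the mouse were followed in cells of uteri exposed to doxorubicin, alone or with anti-Müllerian hormone. They were taken as every gene symbol of the deposited gene table that starts with Hist1h, Hist2h, Hist3h or Hist4h, which gave 67 of 32285 annotated genes. By the histone they encode, 6 are linker H1 genes, 18 H2A, 18 H2B, 12 H3 and 13 H4 genes. The core histones H2A, H2B, H3 and H4 form the protein spool around which DNA is wrapped, and H1 seals the DNA that enters and leaves it. Most of these genes are switched on with DNA replication, when new chromatin has to be assembled, and their messages are made and then destroyed together. Their messages are the known exception to polyadenylation in animal cells: they end in a short stem-loop, which is bound by the stem-loop binding protein Slbp. A minority of the genes can also give polyadenylated messages in cells that do not divide.

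Uterine cells of 2 groups of mice were compared. The DOX group received doxorubicin, an anthracycline that traps topoisomerase II on DNA, at 3 mg/kg. The DOX plus AMH group received the same dose together with anti-Müllerian hormone (AMH), a hormone of the TGF-beta family, at 0.75 mg/kg. Uteri were taken at 4 h, with 5 animals of a group combined before cells were dissociated. Doxorubicin was thus shared by both groups, and neither group shows uteri without it. The series text describes prepubertal mice of postnatal day 25 that had weekly injections, but for bulk sequencing, and strain, genotype and schedule of the animals used here are not given in the sources used here. Each group is 1 library, so no spread between animals could be had, no test was made, and all intervals below are 95% intervals for counting error only.

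The measure was the number of unique molecular identifiers (UMIs, each a tagged RNA molecule), made with 10x 3' v3.1 chemistry, which captures RNA by its poly(A) tail or another run of adenines. Values are therefore levels of captured molecules, and a histone message without such a run is poorly counted. Levels are given as CPM, the UMIs of a gene scaled to a common total of UMIs for the same cells. They count molecules, and messages of different genes may be captured unequally. A level therefore compares 1 gene across cells rather than 2 genes with each other, and sums and shares below are of captured molecules. DOX values are given before DOX plus AMH values throughout. Log2 ratios have DOX in the denominator, so a negative one means a lower level with AMH. Sequencing gave 129530270 and 97887259 UMIs in 9258 and 8083 barcodes, 7387 and 6787 cells were kept after filtering, and 6713 and 5999 of them were assigned to a class by fixed marker genes. Only 17 barcodes occurred in both libraries. Median depth was 14163 and 10486 UMIs per assigned cell, so DOX cells were the deeper ones.

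Of the 67 members, 65 had at least 1 UMI in assigned cells, 62 had at least 20 and the other two, Hist1h2aa and Hist1h2ba, had none. In kept cells the members held 70519 and 51096 UMIs, 611 and 569 CPM. A few genes carried a large part of this. Hist1h2bc, an H2B gene, held 14.8% and 14.4% of all member UMIs in assigned cells, the H2A gene Hist1h2ap 12.04% and 11.9%, and the linker gene Hist1h1b 12.4% and 6.84%. The H4 gene Hist1h4d followed with 7.74% and 8.90%. By position, 54 members lie on chromosome 13, 10 on chromosome 3, 2 on chromosome 11 and 1 on chromosome 6 (mm10, the same assembly as GRCm38). All 67 matched protein-coding genes of GENCODE release M21, 62 of them with a single exon, and 26 stand in 13 divergent pairs whose starts are at most 1 kb apart.

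The stem-loop that ends a replication histone message was searched in these gene models as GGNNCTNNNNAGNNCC on the sense strand, with all 6 pairs of its stem matching. It was found in 46 of the 67 members and in 0.6% of 21834 other protein-coding genes. The models differ in where they end. In 23 members the model stops within 100 bases of the stem-loop, in 23 it runs further, and in 21 no stem-loop lies inside it. Sites of 8 members follow as examples. Ratios described further on differ in their medians between models that end near this site and models that run further. The exceptions named there are not among the sites shown. Each is given 5′ to 3′ from the sense strand of GENCODE M21 transcripts (GRCm38), with the stem-loop in capitals and at most 6 bases on each side.
Hist1h2ap (H2A, chr13:21833026-21833050, minus strand, 3 bases from the end of the model): aaaaaaGGCTCTTTTCAGAGCCatc
Hist1h3b (H3, chr13:23752814-23752841, plus strand, 51 bases from the end of the model): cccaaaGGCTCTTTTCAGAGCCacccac
Hist1h2ae (H2A, chr13:23570662-23570689, minus strand, 151 bases from the end of the model): aacaaaGGCTCTTTTCAGAGCCattcac
Hist1h4d (H4, chr13:23581944-23581971, plus strand, 770 bases from the end of the model): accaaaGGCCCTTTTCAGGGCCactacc
Hist1h1e (H1, chr13:23621776-23621803, minus strand, 1153 bases from the end of the model): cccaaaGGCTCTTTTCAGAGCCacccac
Hist3h2a (H2A, chr11:58955166-58955193, plus strand, 1643 bases from the end of the model): accaaaGGCTCTTTTCAGAGCCacccac
Hist1h2be (H2B, chr13:23585525-23585552, minus strand, 1861 bases from the end of the model): accaaaGGCTCTTTTCAGAGCCacccaa
Hist4h4 (H4, chr6:136803992-136804019, minus strand, 2445 bases from the end of the model): cacaaaGGCCCTTTTCAGGGCCcacaaa
The form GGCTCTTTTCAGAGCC occurred in 26 members, from the H1, H2A, H2B and H3 families. The form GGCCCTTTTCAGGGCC occurred in 7, all of them H4 genes.

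Many members are near copies of each other. In 32 members at least 50% of the 60-base words in the last 300 bases of the transcript also occur in another member, and for Hist1h2ap, Hist1h3e, Hist1h2br, Hist2h2aa1 and Hist1h1e it is 100%. The model of Hist1h2be overlaps that of Hist1h1e on the same strand. Values of these single genes are uncertain to that degree, and sums over a family are affected only where a copy lies in another family. Hist3h2a, Hist2h2aa1, Hist2h3c1, Hist2h2bb and Hist1h2ac also overlap a gene outside the set on their own strand.

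In stromal-like cells, the connective tissue cells of the uterine wall and the largest class with 4784 and 3462 cells, the members were lower in DOX plus AMH. Their summed level was 542 CPM (536 to 547) in DOX and 387 CPM (381 to 393) in DOX plus AMH, a log2 ratio of -0.48 (-0.51 to -0.46). The families differed in how far they went. H1 stood at 161 and 80.6 CPM, a log2 ratio of -0.997 (-1.05 to -0.94). H2A stood at 158 and 109 CPM (log2 -0.53), H2B at 102 and 77.3 CPM (log2 -0.41), and H3 at 20.4 and 15.2 CPM (log2 -0.42). H4 alone was not lower, with 99.8 and 105 CPM and a log2 ratio of 0.07 (0.02 to 0.13). H4 genes thus made up 18.4% of the stromal member UMIs in DOX and 27.1% in DOX plus AMH, and H1 genes 29.7% and 20.8%. Scaling by TMM, which sets the bulk of genes equal, shifts every stromal log2 ratio by -0.19, which turns the sign of the H4 sum and of Hist1h4d, Hist1h4c and Hist3h2ba.

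**Figure D1:**
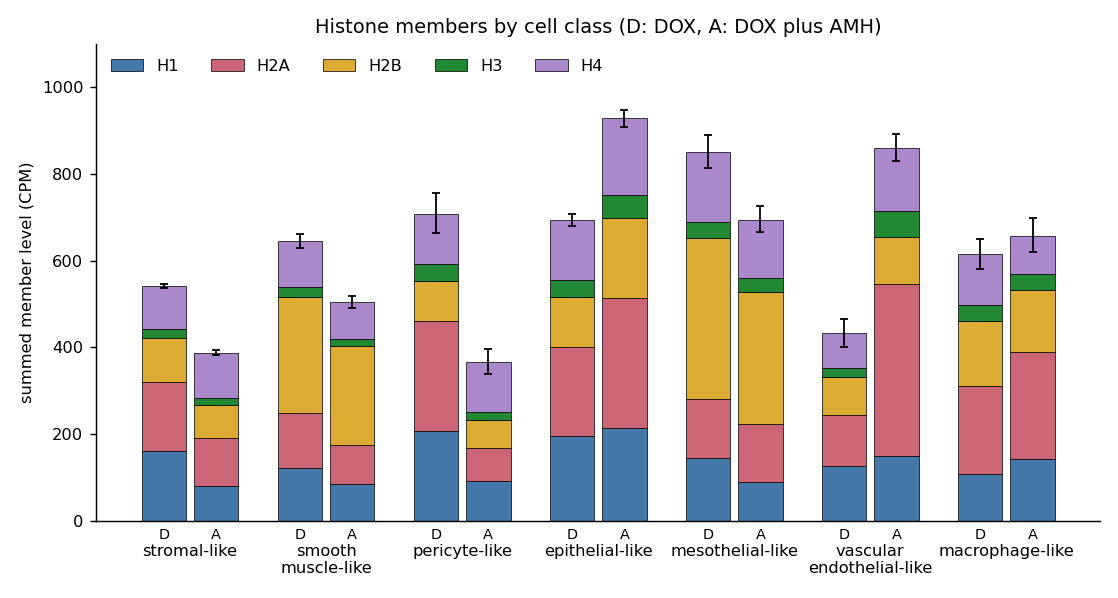
Summed member level in CPM (y axis) in 7 cell classes, one bar per library (D: DOX, A: DOX plus AMH), stacked by histone family, with the 95% counting interval of the sum. Stromal-like bars stand at 542 and 387 CPM and epithelial-like bars at 693 and 928 CPM; H2B fills the largest part of the smooth muscle-like and mesothelial-like bars.

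Counted by single genes, 51 members had at least 50 UMIs in stromal-like cells over both libraries. Of these, 23 were at least 1.5-fold lower in DOX plus AMH and 4 at least 1.5-fold higher, where 4.48% of all 16044 genes with as many UMIs were lower and 11.2% higher. The median log2 ratio was -0.53 over these members and 0.16 over all those genes. The lower members were 3 of 5 H1, 6 of 12 H2A, 6 of 13 H2B, 7 of 11 H3 and 1 of 10 H4 genes. The 4 higher ones were Hist1h2ac, Hist1h2be, Hist2h2aa1 and Hist4h4. This is a count by size and not of tested genes, and the minimum of 50 UMIs left out 16 members.

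Among the linker genes Hist1h1b had the widest gap. It stood at 80.5 CPM in DOX and 25.2 CPM in DOX plus AMH, a log2 ratio of -1.68 (-1.77 to -1.58). Hist1h1e stood at 41.2 and 29.3 CPM (log2 -0.49) and Hist1h1c at 27.0 and 20.04 CPM (log2 -0.43). Counting intervals of these 3 do not overlap between the libraries. The share of all genes that separate in this way was not counted, so this does not set them apart from other genes. Among H2A genes, Hist1h2ap stood at 66.4 and 35.6 CPM (log2 -0.90) and Hist1h2ae at 34.1 and 19.3 CPM (log2 -0.82). Hist3h2a, at 28.6 and 27.7 CPM, had overlapping intervals. Hist2h2aa1 at 4.59 and 7.02 CPM and Hist1h2ac at 2.84 and 4.85 CPM stood the other way round.

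Among H2B genes, Hist1h2bc stood at 70.8 and 41.5 CPM (log2 -0.77) and Hist1h2be at 10.4 and 19.3 CPM (log2 0.89). These 2 genes of 1 family thus stood in opposite order in the libraries. Among members with at least 50 UMIs, Hist1h2bm and Hist1h2bh were among the 4 lowest ratios, the first at 1.85 and 0.61 CPM (138 and 24 UMIs) and the second at 0.70 and 0.20 CPM (52 and 8 UMIs). The lowest ratio among these members was that of the H3 gene Hist1h3g, with 53 UMIs in DOX and 6 in DOX plus AMH. Hist1h3c, also an H3 gene, stood at 1.95 and 0.74 CPM. Hist1h3e and Hist2h3b, of the same family, differed by less than their intervals, at 6.22 and 5.92 CPM and at 2.10 and 2.07 CPM. Among H4 genes, Hist1h4d stood at 47.6 and 52.9 CPM, Hist1h4h at 12.1 and 10.8 CPM and Hist1h4i at 12.7 and 7.05 CPM. The H2B gene Hist3h2ba at 2.90 and 3.04 CPM and the H4 gene Hist1h4c at 8.79 and 9.22 CPM had overlapping intervals. Hist4h4, at 3.82 and 10.5 CPM, had the highest ratio among members with at least 50 UMIs, a log2 ratio of 1.46 (1.23 to 1.68).

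**Figure D2:**
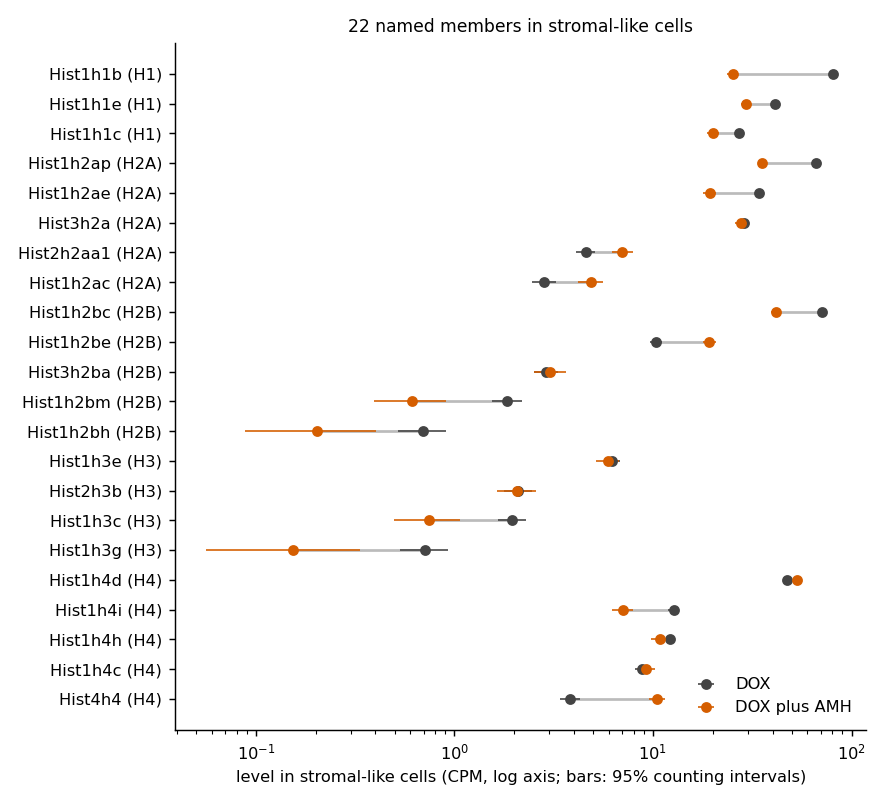
Level of 22 named members in stromal-like cells (x axis, CPM on a log axis), ordered by family, with DOX in dark grey, DOX plus AMH in orange and 95% counting intervals. The widest gaps to the left are at Hist1h3g, Hist1h2bh and Hist1h1b, and Hist4h4, Hist1h2be, Hist1h2ac and Hist2h2aa1 stand higher in DOX plus AMH.

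Cells were then marked by Top2a, topoisomerase II alpha, and Mki67, the antigen Ki-67. Both are transcribed from S phase to mitosis, and neither is a member. A mark by 1 UMI does not by itself show that a cell divides. At least 1 UMI of either was found in 535 of 4784 stromal-like cells in DOX (11.2%, 10.3 to 12.1) and in 129 of 3462 in DOX plus AMH (3.73%, 3.12 to 4.41). With every cell thinned to 2000 UMIs, which left out 34 and 16 shallower cells, the shares were 4.44% and 1.22%. Erythroid-like cells, which should not divide, gave 2 of 72 at full depth (2.78%) in DOX plus AMH at a median of 5418 UMIs, and 0 of 72 when thinned, for which a floor of 3 counts allows a share of up to 4.17% and the exact 95% limit is 4.99%. These same erythroid-like cells held members at 200 CPM, and 29.2% of them (19.0 to 41.1) kept a member UMI after thinning, against 44.8% and 44.95% of stromal-like cells (94.3% and 88.0% at full depth). The part of free RNA in the lower stromal levels was not tested.

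Split by this mark, the summed level differed between the libraries by less than the counting error. Cells with a Top2a or Mki67 UMI stood at 1969 CPM (1943 to 1996) and 1976 CPM (1914 to 2038), and cells without stood at 301 CPM (297 to 305) and 302 CPM (296 to 307). Their ratio was 6.54 in DOX and 6.55 in DOX plus AMH. The match in marked cells rests on 1 cell of DOX plus AMH, which held 565 member UMIs. Without the richest cell of each library, a setting chosen after the data were seen, marked cells stood at 1929 and 1722 CPM, a log2 ratio of -0.16 (-0.22 to -0.11). With all cells, DOX plus AMH was also weighted by the share of all stromal UMIs that marked cells held in DOX, 14.4%. It would then sum to 543 CPM against 542, a log2 ratio of 0.0039. This value follows by arithmetic from the matching levels above and is no separate evidence. It was computed for this mark only. Marked cells held 52.4% of all stromal member UMIs in DOX and 26.1% in DOX plus AMH. The summed members were also concentrated in fewer cells in DOX: 4.64% of the cells were enough to hold 50% of the UMIs there, and 12.9% in DOX plus AMH.

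The ratio between libraries in marked cells also depends on where the line is drawn. Cells with exactly 1 UMI of the pair, a stratum added after the values were seen, held 355 and 284 CPM. Unmarked cells held 301 and 302 CPM. Cells with exactly 1 UMI were 268 of 535 marked cells in DOX and 98 of 129 in DOX plus AMH. The marked cells of the libraries thus differed in make-up. Cells with at least 2 UMIs of the pair held 3097 CPM (267 cells) and 5056 CPM (31 cells), a log2 ratio of 0.71 (0.66 to 0.76). Cells with a UMI of both genes held 3919 CPM (182 cells) and 6742 CPM (20 cells), a log2 ratio of 0.78, and 3841 and 6036 CPM without the richest cell of each library. At full depth the more strictly marked stromal cells were thus fewer and richer in members in DOX plus AMH. Median depth of cells with a Top2a or Mki67 UMI was 18378 and 13015 UMIs. A fixed number of UMIs is therefore not the same mark in both libraries, and the part of depth was not tested. Thinned to 2000 UMIs before the split, marked cells stood at 3036 and 3369 CPM, with an interval that includes no difference. With any UMI of a list of 20 mitosis genes as the mark they stood at 926 and 693 CPM over 1652 and 647 cells. Of these rules only the last 2 redraw the unmarked cells, which then stood at 310 and 312 CPM after thinning and at 296 and 298 CPM with the mitosis list.

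**Figure D3:**
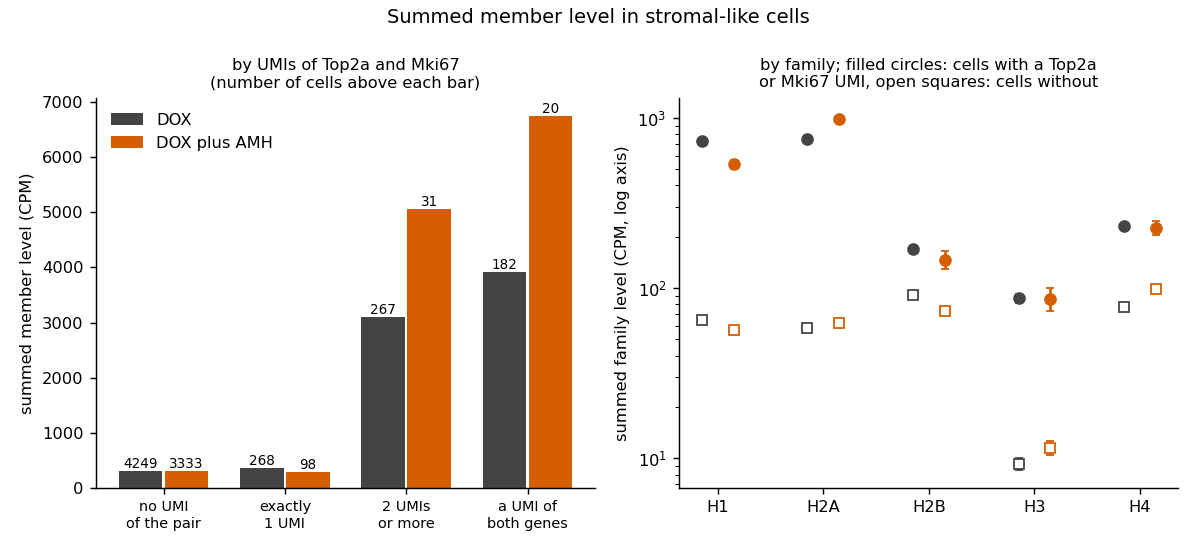
Left, summed member level (CPM) of stromal-like cells by their UMIs of Top2a and Mki67, with the number of cells above each bar; right, level of each family (CPM, log axis) in cells with a UMI of either gene (filled circles) and without (open squares), with 95% counting intervals. Cells without a UMI stand at 301 and 302 CPM, those with exactly 1 at 355 and 284 CPM, and those with 2 or more at 3097 and 5056 CPM.

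The families were not alike in how they followed the marked cells. H2A and H1 had the widest ratios of marked to unmarked cells, 12.9 and 11.3 in DOX and 15.9 and 9.48 in DOX plus AMH. H3 followed with 9.39 and 7.505. H4 had 2.97 and 2.30, and H2B had 1.86 and 1.99. In unmarked cells H2B stood at 91.2 and 73.6 CPM and H4 at 77.7 and 98.5 CPM. By single genes with at least 50 UMIs, 43 of 48 members were at least 1.5-fold higher in marked than unmarked cells of DOX and none was lower, where 13.9% and 3.38% of all genes were. In DOX plus AMH 22 of 31 were higher and 2, Hist2h3c1 and Hist2h4, lower, where 12.7% and 7.68% of all genes were.

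Among single genes, Hist1h1b, which encodes the linker histone H1.5, stood at 504 CPM in marked and 9.13 CPM in unmarked cells of DOX, and at 350 and 7.67 CPM in DOX plus AMH. That is a ratio of 55.3 (50.7 to 60.3) in DOX and 45.7 (39.7 to 52.6) in DOX plus AMH. Hist1h2ap stood at 409 and 8.67 CPM in DOX and at 566 and 6.97 CPM in DOX plus AMH, ratios of 47.2 (43.2 to 51.6) and 81.2 (70.9 to 93.3). These 2 genes were thus in opposite order in the libraries. Marked cells held 90.3% and 71.1% of the stromal Hist1h1b UMIs and 88.8% and 81.4% of those of Hist1h2ap. The H3 gene Hist1h3c had ratios of 118 (55.7 to 299) and 116 (40.02 to 458). Hist1h3b, of the same family, had 93.96 (41.6 to 262) and 334, the latter resting on 1 UMI in unmarked cells. The widest ratios were those of the H2A gene Hist1h2af, 493 and 742, which rest on 2 UMIs and 1 UMI in unmarked cells. At the other end Hist1h2bc had ratios of 1.06 (0.98 to 1.14) and 1.12 (0.90 to 1.39), and both intervals include 1. Hist3h2a had 0.82 (0.72 to 0.94) and 0.84 (0.61 to 1.13), and Hist2h4 1.04 (0.70 to 1.49) and 0.63 (0.23 to 1.40). Marked cells held 15.1% and 5.72% of the Hist1h2bc UMIs, near their share of all UMIs, 14.4% and 5.12%.

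Below these sums, single members differed between the libraries within the same stratum. In marked cells 43 members had at least 50 UMIs, of which 7 were at least 1.5-fold lower and 6 higher in DOX plus AMH. Of all genes there, 6.4% were lower and 9.5% higher. In these cells H1 stood at 732 and 533 CPM and H2A at 750 and 984.5 CPM, a log2 ratio of -0.46 (-0.55 to -0.36) against 0.39 (0.32 to 0.46). Hist1h1b accounted for most of the first and Hist1h2ap for most of the second, with log2 ratios of -0.53 (-0.64 to -0.41) and 0.47 (0.37 to 0.56). The H2B, H3 and H4 families had log2 ratios of -0.21, -0.01 and -0.03 there, and the intervals of H3 and H4 include no difference. All of these rest on 129 cells in DOX plus AMH, with the rich cell named above among them.

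In unmarked cells 36 members had at least 50 UMIs. Of these, 2 were at least 1.5-fold lower in DOX plus AMH, Hist1h2bc and Hist2h3c2, and 7 higher, where 2.89% and 12.1% of all genes were. Hist1h2bc stood at 70.3 and 41.3 CPM in unmarked cells, a log2 ratio of -0.77 (-0.85 to -0.68), and at 74.2 and 46.4 CPM in marked ones, so a gap between the libraries was present in both. Hist1h2be stood at 9.52 and 19.2 CPM in unmarked cells and at 15.7 and 19.96 CPM in marked ones. Hist4h4 stood at 3.28 and 10.4 CPM in unmarked cells, a log2 ratio of 1.66 (1.42 to 1.91), and at 7.05 and 12.5 CPM in marked ones. Hist1h4d, the H4 gene with the most UMIs, stood at 37.7 and 49.0 CPM in unmarked cells (log2 0.38) and at 106 and 125 CPM in marked ones. Hist1h2ac was at least 1.5-fold higher in both strata, at 2.06 and 4.36 CPM in unmarked and 7.42 and 14.0 CPM in marked cells. The H4 family as a whole had a log2 ratio of 0.34 (0.28 to 0.40) in unmarked cells and H2B one of -0.31 (-0.38 to -0.24).

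**Figure D4:**
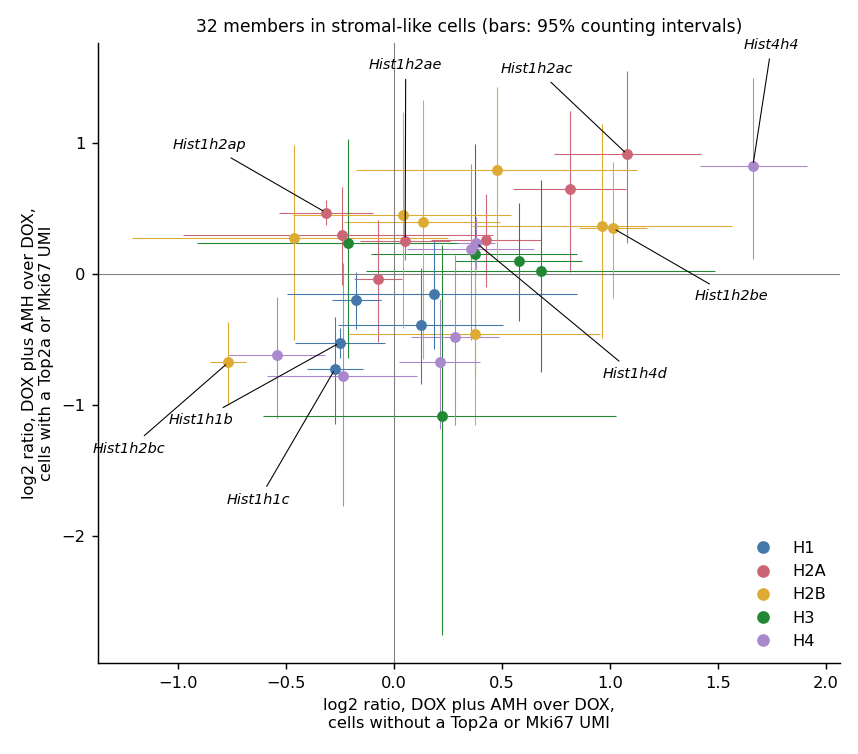
Log2 ratio of DOX plus AMH over DOX for 32 members with at least 50 UMIs in each stratum of stromal-like cells, in cells without (x axis) and with (y axis) a Top2a or Mki67 UMI, coloured by family, with 95% counting intervals. Hist1h2bc lies low on both axes, Hist4h4 and Hist1h2ac high on both, and Hist1h2ap lies above 0 on the y axis and below 0 on the x axis.

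The 3′ end of the gene model went along with these differences. Of members with at least 50 stromal UMIs, 16 have a model that ends within 100 bases of the stem-loop, and their ratios of marked to unmarked cells had a median of 18.4 in DOX (2.55 to 118) and 13.2 in DOX plus AMH (1.88 to 334). The latter is over 15 of them, since Hist1h2ag had no unmarked UMI there. The 21 whose model runs further had medians of 3.60 (0.30 to 24.2) and 3.21 (up to 30.9, with Hist2h3c2 at 0 UMIs in marked cells). Of these 21, 7 in DOX and 8 in DOX plus AMH had a ratio of 2 or less, against 0 and 1 of those that end near the stem-loop. The 14 without a stem-loop in the model had medians of 18.3 (1.06 to 493) and 15.8 (0.68 to 742). Their models are unlike in length, with 381 bases for Hist2h2bb and Hist1h2bn and 2620 for Hist2h2be. A model can stop before the stem-loop, so these genes need not lack one. Of the sites shown above, Hist4h4, Hist1h2be and Hist3h2a have the longest stretches past the stem-loop, with ratios of 2.15 and 1.20, 1.65 and 1.04, and 0.82 and 0.84. Hist1h2ap and Hist1h3b have the shortest, with 47.2 and 81.2 and with 93.96 and 334. The order is not strict. Hist1h1d has the longest stretch of all, 4884 bases, and ratios of 13.9 and 9.76, and Hist1h2bh runs 1214 bases past its stem-loop and had 22.1 and 30.9. Hist1h4m ends 3 bases from its stem-loop, as Hist1h2ap does, and had 2.93 and 2.62, and Hist1h4h ends 46 bases from it and had 3.46 and 1.88. Summed in unmarked cells, members with a model running further stood at 176 and 200 CPM, those ending near the stem-loop at 37.3 and 42.3 CPM and those without a stem-loop at 87.8 and 59.2 CPM, most of the last being Hist1h2bc. The model decides which molecules can be counted for a gene at all. Its part in these ratios was not tested.

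**Figure D5:**
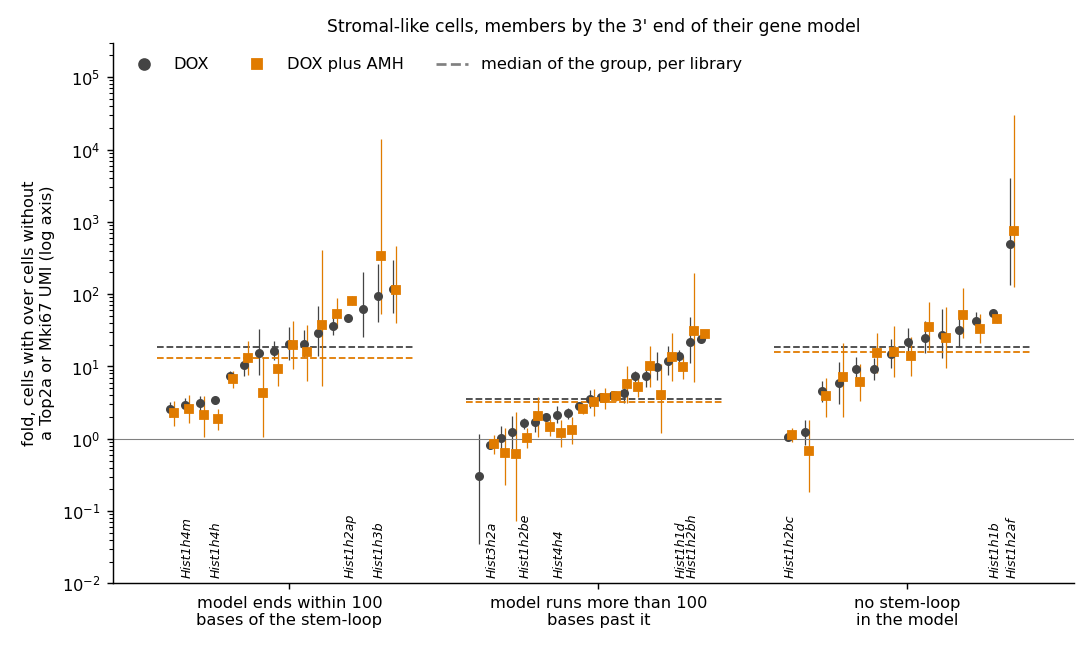
Ratio of marked to unmarked stromal-like cells (y axis, log axis) in DOX (circles) and DOX plus AMH (squares) for members with at least 50 UMIs over both libraries, grouped by where their gene model ends relative to the stem-loop, with 95% counting intervals, dashed lines at the group medians and names of members given in the text above the x axis. The DOX medians are 18.4, 3.60 and 18.3, and Hist1h2ag and Hist2h3c2, each with no UMI in 1 stratum of DOX plus AMH, have no square.

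Divergent pairs share the stretch between their starts, and some of them differed in the counts on either side. Hist1h2ac and Hist1h2bc start 251 bases apart. Their UMIs in assigned cells were 376 and 9698 in DOX, and 496 and 6733 in DOX plus AMH, and as levels 3.44 and 5.99 CPM for Hist1h2ac against 88.6 and 81.3 CPM for Hist1h2bc, opposite orders within the pair. Hist1h2ap and Hist1h2br, 236 bases apart, had 7889 and 305 UMIs in DOX and 5560 and 215 in DOX plus AMH. Hist1h2ae and Hist1h2bg, 176 bases apart, had 4322 and 315 UMIs in DOX and 2743 and 265 in DOX plus AMH. Ratios of marked to unmarked stromal cells, in DOX and then DOX plus AMH, were 3.60 and 3.21 for Hist1h2ac and 1.06 and 1.12 for Hist1h2bc, the latter with intervals that include 1. They were 47.2 and 81.2 for Hist1h2ap and 9.27 and 15.5 for Hist1h2br. They were 24.2 and 27.9 for Hist1h2ae and 4.32 and 5.73 for Hist1h2bg.

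Promoters were read from RefSeq (GRCm38), where 62 of the 67 members had an entry of 250 bases before to 50 after the start, searched on both strands. The CCAAT box was found in 85.5% of these 62 and in 37.3% of 32788 other promoters of the same length. It was in every H1, H2A, H2B and H3 entry and in 3 of 12 H4 entries. TATAAA was in 56.5% of members and 13.5% of the others. ATTTGCAT, the octamer bound by Oct-1, was in 21% of members against 1.7%, all of them H2A (7 of 18) or H2B (6 of 16) genes. AAACACA, known from H1 promoters, was in 5 of 6 H1 entries against 7.17% of other promoters. A match is a run of letters and not a bound site, and no matches overlap in the stretches below. Shown 5′ to 3′ on the gene's strand, motifs in capitals in either orientation, are the 150 bases before the start of 5 members whose levels went different ways in stromal-like cells.
Hist1h1b (chr13:21780626-21780775, minus strand): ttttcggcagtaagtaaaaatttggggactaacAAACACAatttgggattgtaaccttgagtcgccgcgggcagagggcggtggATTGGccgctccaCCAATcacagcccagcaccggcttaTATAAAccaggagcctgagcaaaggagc
Hist1h1e (chr13:23622559-23622708, minus strand): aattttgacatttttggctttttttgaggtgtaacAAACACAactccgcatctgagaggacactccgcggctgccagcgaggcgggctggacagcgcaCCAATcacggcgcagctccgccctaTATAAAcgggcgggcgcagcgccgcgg
Hist1h2ap (chr13:21833476-21833625, minus strand): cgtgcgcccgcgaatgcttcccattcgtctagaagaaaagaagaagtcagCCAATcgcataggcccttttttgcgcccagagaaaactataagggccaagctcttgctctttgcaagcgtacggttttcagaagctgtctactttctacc
Hist1h2ac (chr13:23683960-23684109, minus strand): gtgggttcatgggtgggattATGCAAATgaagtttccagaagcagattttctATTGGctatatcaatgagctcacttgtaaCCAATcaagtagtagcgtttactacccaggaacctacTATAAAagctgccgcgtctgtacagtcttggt
Hist1h4d (chr13:23581418-23581567, plus strand): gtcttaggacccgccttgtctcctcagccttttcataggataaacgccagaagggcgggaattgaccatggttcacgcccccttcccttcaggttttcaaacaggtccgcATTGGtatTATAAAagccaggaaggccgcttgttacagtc

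Smooth muscle-like cells, 896 and 1047 of them, held members at 645 CPM (629 to 661) and 505 CPM (492 to 518), a log2 ratio of -0.35 (-0.41 to -0.30). Their leading family was H2B, with 268 and 229 CPM or 41.6% and 45.3% of the member UMIs. Most of it was Hist1h2bc, at 218 and 172 CPM, above its stromal level in both libraries, and Hist3h2a was second among their members at 59.0 and 50.1 CPM. Of 27 members with at least 50 UMIs, 6 were at least 1.5-fold lower in DOX plus AMH and 4 higher, where 5.58% and 8.52% of all genes were. Among the 6 were, chosen after their values were seen, Hist1h1b at 32.5 and 4.36 CPM, Hist1h2ap at 27.7 and 11.3 CPM, and Hist1h2ae at 18.4 and 6.13 CPM. Hist1h2be and Hist1h2ac stood higher in DOX plus AMH, as in stromal-like cells, at 11.98 and 18.6 CPM and at 2.95 and 5.48 CPM.

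Here the marked cells did not match between libraries. Cells with a Top2a or Mki67 UMI held 1574 CPM in DOX (68 cells) and 441 CPM in DOX plus AMH (32 cells). Unmarked cells held 535 and 508 CPM. In DOX plus AMH the marked smooth muscle-like cells were thus at or below the unmarked ones, a ratio of 0.87 (0.75 to 1.00), against 2.94 in DOX. Their H1 level was 51.6 CPM against 450 in DOX, and their H2B level 224 against 287 CPM. Top2a itself stood at 70.7 and 2.69 CPM in smooth muscle-like cells, and the share of marked cells, 7.59% and 3.06%, is in DOX plus AMH near the 2.78% of erythroid-like cells. With cells thinned to 2000 UMIs the marked shares were 3.60% and 0.78%.

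In the other classes compared the sums went both ways. Epithelial-like cells (310 and 190) held members at 693 and 928 CPM, a log2 ratio of 0.42 (0.38 to 0.46), with Hist1h2ap at 104 and 148 CPM and Hist1h2bc at 70.7 and 114 CPM. Of their 40 members with at least 50 UMIs, 17 were at least 1.5-fold higher and 0 lower in DOX plus AMH, where 14.1% and 4.08% of all genes were. The 17 held 6 of 9 H2A, 7 of 10 H2B and none of 5 H1 genes. In these cells the sum was higher both in marked cells, 829 and 1197 CPM, and in unmarked ones, 375 and 535 CPM, while the share of marked cells was 49.0% and 36.8%. The richest cell of the DOX plus AMH library held 9.78% of its epithelial member UMIs, and without the richest cell of each library the sums were 677 and 847 CPM.

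Vascular endothelial-like cells (115 and 215) held members at 432 and 861 CPM, a log2 ratio of 0.99 (0.88 to 1.11), led by Hist1h2ap at 38.3 and 211 CPM and Hist1h2ae at 30.6 and 101 CPM. This rests on few cells: 4 of the 215 held 50% of the DOX plus AMH UMIs, the sums without the richest cell of each library were 412 and 699 CPM, and unmarked cells stood at 293 and 274 CPM. Pericyte-like cells (128 and 211) stood at 708 and 366 CPM, where 2 cells of DOX held 50% of its UMIs. Their Hist1h1b was at 106 and 14.4 CPM and their Hist1h2ap at 107 and 13.9 CPM, from 15 marked cells in DOX and 4 in DOX plus AMH. Their H4 level, 115 and 115 CPM, did not share the gap of the other families, as in stromal-like cells. Mesothelial-like cells (82 and 120) stood at 851 and 695 CPM, led by H2B with 373 and 305 CPM, of which Hist1h2bc gave 312 and 260 CPM. Macrophage-like cells (195 and 136) stood at 614 and 658 CPM, an interval of the log2 ratio from -0.02 to 0.22, with Hist1h2bc at 106 and 104 CPM and Hist1h2ap at 59.7 and 84.9 CPM. Without the richest cell of each library they stood at 526 and 458 CPM, the other order. Squamous-like cells, 366 in DOX plus AMH and 3 in DOX, were not compared and stood at 784 CPM in the former. Lymphatic endothelial-like (73 and 40), dendritic-like (67 and 46) and lymphocyte-like cells (44 and 62) had fewer than 50 cells in 1 library. These were not compared either, and stood at 722 and 486, 994 and 1718, and 5190 and 577 CPM. In DOX 4 lymphocyte-like cells held 50% of the member UMIs of their class.

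Over the 7 classes compared, Hist1h2bc and Hist1h2ap ordered the classes differently. In both libraries Hist1h2bc was highest in mesothelial-like and smooth muscle-like cells, and lowest in pericyte-like cells in DOX (48.0 CPM) and again in DOX plus AMH (31.2 CPM). In DOX its intervals for stromal-like cells (70.8 CPM) and epithelial-like cells (70.7 CPM) overlap. Hist1h2ap was highest in pericyte-like (107 CPM) and epithelial-like cells (104 CPM) of DOX, whose intervals overlap, and lowest in smooth muscle-like (27.7 CPM) and vascular endothelial-like cells (38.3 CPM), whose intervals overlap too. In DOX 2 pericyte-like cells held 50% of the member UMIs of their class. In DOX plus AMH Hist1h2ap was highest in vascular endothelial-like (211 CPM) and epithelial-like cells (148 CPM), and lowest in smooth muscle-like (11.3 CPM) and pericyte-like cells (13.9 CPM), whose intervals overlap.

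The machinery around these genes was described from 5 lists, to be read against the 4.48% of all genes that were at least 1.5-fold lower and the 11.2% that were higher in stromal-like cells. Of 13 genes for histone message processing, none was 1.5-fold apart in stromal-like cells, with a median log2 ratio of -0.06. Slbp stood at 36.6 and 38.1 CPM, Ncbp2, of the cap-binding complex, at 37.5 and 37.0 CPM, and Lsm10, of the U7 snRNP that cuts histone messages, at 23.6 and 20.6 CPM. Slbp was 2.45 and 2.38 times as high in marked as in unmarked cells. Of 11 genes listed as replacement histones, 2 were at least 1.5-fold lower, H2afx and the centromeric histone gene Cenpa, both named after their values were seen. In marked cells H2afx was 9.29 and 6.02 times as high as in unmarked cells, and Cenpa 45.7 and 11.1 times. H3f3b, which with H3f3a encodes histone H3.3, stood at 991 and 816 CPM, H3f3a at 610 and 486 CPM and H2afz, the gene of H2A.Z, at 416 and 296 CPM. Of 13 histone chaperones 2 were lower, Chaf1b and Asf1b, and the 3 with the most UMIs, Atrx, a partner of Daxx in H3.3 deposition, at 169 and 197 CPM, Rbbp7, which binds H4, at 87.7 and 90.2 CPM and Supt16, of the FACT complex, at 65.8 and 73.0 CPM, were within that limit.

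Against the same 4.48% and 11.2% of all genes, 8 of 25 S phase genes were at least 1.5-fold lower and none higher in stromal-like cells, with Pcna, the sliding clamp of the replication fork, at 29.3 and 29.8 CPM, the fork protection gene Tipin at 26.5 and 22.6 CPM and Rrm1, a subunit of ribonucleotide reductase, at 21.6 and 16.4 CPM. Of 20 mitosis genes all 20 were lower, with the kinetochore gene Cenpf at 45.7 and 8.604 CPM, the spindle midzone gene Prc1 at 42.7 and 9.55 CPM and Ube2c, a ubiquitin carrier of the anaphase-promoting complex, at 34.9 and 6.49 CPM. In marked cells alone 1 of 25 S phase genes and 12 of 20 mitosis genes were lower, where 6.4% of all genes were, and the median log2 ratios were 0.01 and -0.76. The members with at least 50 UMIs had a median of 0.24 there.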

How the data were processed

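The deposited files are raw UMI counts per gene and barcode, made by the authors with Cell Ranger 7.0.0 on mm10, per the submitters' processing notes; the annotation release is not given in the sources used here. Barcodes with at least 1000 UMIs, 500 genes and at most 15% mitochondrial UMIs were kept, and Scrublet (scanpy 1.11.5, expected rate 0.06, chosen after a lower setting had called no doublets in 1 library) removed 396 and 278 doublets. A cell's class was the one whose markers scored highest relative to the 50th highest cell (score at least 0.4, lead at least 0.1, at least 3 markers), a scoring set after the data were seen. Of assigned cells, 97.2% had the same class in Leiden clusters found without histone, S phase and mitosis genes. Those clusters were named by the same marker scores, so this match is no independent check. Gene models of GENCODE M21 and promoters of RefSeq may differ from the authors' annotation. UMIs were summed per class and library. CPM have exact Poisson intervals, ratios and shares exact binomial (Clopper-Pearson) ones, and with 1 library per group no test was made. The calculation was tested on simulated data. Named members are the 12 with the most UMIs, the 3 with the most per family, the 4 highest and 4 lowest stromal ratios, the top 2 of each other class and the top 3 of each list; others were chosen after their values were seen. Members, lists and markers were chosen with earlier results of these data known. Alternatives were TMM (edgeR 4.0.16), other filters, doublets kept, Leiden classes, other minimums, folds, marks and thinning depths, plus leaving out the richest cell of each library, added after the data were seen.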

Additional observations from a re-analysis of the deposited data

Results flagged for a closer look

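The summed members had opposite log2 ratios in stromal-like cells (-0.48) and in epithelial-like cells (0.42), a difference of 0.905 on the log2 scale that was not tested. The same holds for vascular endothelial-like cells (0.99), a difference of 1.48, where 4 cells held 50% of the DOX plus AMH UMIs. The 674 and 788 cells that no marker gate took, left out of all comparisons, also held members, at 824 CPM in DOX and 613 CPM in DOX plus AMH.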

How the results depend on the processing

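With 1 library per group no replicate could be left out and no spread between animals is known, so depth sets only the counting error. No paired analysis was possible because each group is 1 library. The summed ratio of the 7 classes kept its sign under all alternatives run except in macrophage-like cells, whose interval includes no difference. The stromal log2 ratio of the sum, -0.48, was -0.68 with TMM, -0.45 with doublets kept, -0.45 without the member with the most UMIs, -0.59 as the median of members and -0.52 without the richest cell of each library, a setting chosen after seeing the data, here and below. The smooth muscle-like ratio was -0.46 with TMM and -0.46 with Leiden classes, and the mesothelial-like one -0.13 and -0.083. The pericyte-like ratio was -0.67 with Leiden classes, -0.57 as a median and -0.80 without the richest cells. The epithelial-like ratio was 0.33 with TMM, 0.36 with stricter cell filters, 0.54 with Leiden classes, 0.56 as a median and 0.32 without the richest cells. The vascular endothelial-like ratio was 0.29 with Leiden classes, 1.12 without the top member and 0.76 without the richest cells, and the macrophage-like one -0.18 with Leiden classes and -0.20 without the richest cells. Of stromal members 2 were higher with TMM in place of 4, and at 2-fold 1 was higher and 9 lower in place of 23. Shares of all genes with TMM or at 2-fold are not given here, so these counts have no background beside them. In marked stromal cells the log2 ratio was 0.78 with both genes required, 0.71 with at least 2 UMIs, 0.15 after thinning, -0.42 with the mitosis list and -0.16 without the richest cells. On the log2 scale marked over unmarked cells, 2.71 in both libraries, was 3.70 and 4.48 with both genes, 3.36 and 4.07 with 2 UMIs, 3.29 and 3.43 after thinning, 2.63 and 2.603 with doublets kept, 1.64 and 1.22 with the mitosis list, and 2.52 in DOX plus AMH without the richest cells. The share of stromal cells with a member UMI was 26.5% and 25.5% at 1000 UMIs and 73.3% and 72.4% at 5000. The cause of these shifts was not tested.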
